A study of Drosophila melanogaster with 4 samples.

Results

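The regions described are the Hsp90 ChIP-seq peaks that lie outside the assembled chromosome arms, on 8 scaffolds of the Drosophila melanogaster genome. They were chosen by the name of their sequence alone: Uextra, U, and the 6 scaffolds whose names end in Het (2LHet, 2RHet, 3LHet, 3RHet, XHet and YHet). The mitochondrial genome was left out. The rule takes 550 of 11299 peaks in replicate 1 and 1540 of 12852 peaks in replicate 2, or 4.87% and 11.98% of the lists. The series holds 2 biological replicates of an Hsp90 immunoprecipitation (13383895 and 17401846 unique ChIP tags) and 2 of input chromatin (10514709 and 15814871 unique tags). Chromatin of both kinds came from DRSC-S2 cells, a Drosophila culture line grown without any treatment named in the labels and fixed with formaldehyde. Peaks of each ChIP replicate had been called by the authors against the input of the same number, and input enters here through their fold enrichments. Values for the 6 arms (2L, 2R, 3L, 3R, 4 and X) stand beside those of the scaffolds.

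Hsp90 is a chaperone that helps client proteins, among them kinases, receptors and chromatin regulators, to reach or keep their active form, and a part of it is found on chromatin. Heterochromatin is the compacted, repeat-rich part of the genome, which in Drosophila lies around the centromeres and along the Y chromosome. In the dm3 assembly the Het scaffolds hold heterochromatic sequence that could be linked to a chromosome, U joins scaffolds that could not be placed, and Uextra joins small scaffolds of lower quality. The names are those of the assembly, and no chromatin mark was measured that could check them in these cells. Distances along U and Uextra describe the joined scaffold and not a chromosome, since the order of the pieces is not known.

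The scaffolds carried Hsp90 peaks in both replicates, but replicate 2 listed more on every one of the 8 scaffolds. Uextra held 452 peaks in replicate 1 and 1268 in replicate 2, which covered 317 kb and 740 kb. U held 80 and 189 peaks over 61.2 kb and 171 kb. On 3RHet there were 6 and 28 peaks, on 3LHet 8 and 25, and on 2RHet 3 and 22. XHet held 1 peak in replicate 1 and 2 in replicate 2. YHet and 2LHet had peaks in replicate 2, with 4 and 2, and none listed in replicate 1. On the arms the lists were closer in size, with 10749 and 11308 peaks. Depth, the fragment size d given by the peak caller (111 bp in replicate 1, 78 bp in replicate 2) and the input all differed between the lists. Their part in the scaffold counts was not tested.

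**Figure D1:**
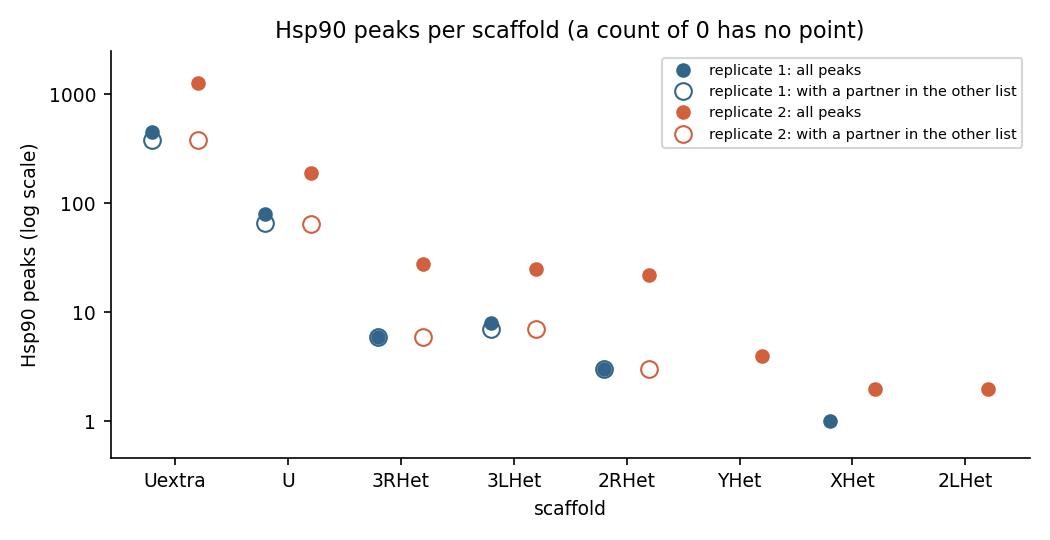
Number of Hsp90 peaks on each of the 8 scaffolds (horizontal axis) on a log scale (vertical axis), replicate 1 in blue and replicate 2 in orange, with filled points for all peaks and open circles for peaks that overlap a peak of the other list by at least 1 bp. Replicate 2 lies above replicate 1 throughout, as on Uextra with 1268 against 452 peaks, while the open circles are level (382 and 378).

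A peak was given a partner when it overlapped a peak of the other list by 1 bp or more. Over the whole lists 88.4% of the peaks of replicate 1 and 76.3% of those of replicate 2 had one. Among the scaffold peaks of replicate 1, 460 of 550 had a partner (83.6%, exact 95% binomial interval 80.3 to 86.6%), against 9526 of 10749 on the arms (88.6%, 88.0 to 89.2%). Among those of replicate 2, 463 of 1540 had one (30.1%, 27.8 to 32.4%), against 9344 of 11308 on the arms (82.6%, 81.9 to 83.3%). The scaffold peaks of replicate 1 thus mostly reappeared in replicate 2, while most of those of replicate 2 had no counterpart. Overlaps on the scaffolds were mostly between single peaks of each list (451 of 458 regions shared by both). The 550 scaffold peaks of replicate 1 therefore limited the share that the 1540 of replicate 2 could reach. The arm lists were nearer in size, so this comparison is not separate from the difference in counts. The intervals cover counting error and take each peak as independent. With 2 libraries an exact two-sided sign-flip test of scaffolds against arms cannot go below p = 0.5, so none was run, and the differences between scaffolds and arms given here are descriptions.

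On each scaffold with shared peaks the counts with a partner were equal or nearly equal in both lists. The shares thus differed as the numbers of peaks did. On Uextra 378 of 452 peaks of replicate 1 had a partner (83.6%) and 382 of 1268 of replicate 2 (30.1%). On U the counts were 66 of 80 (82.5%) and 65 of 189 (34.4%). All 6 peaks of replicate 1 on 3RHet had a partner, against 6 of 28 in replicate 2. On 3LHet 7 of 8 and 7 of 25 peaks had one, and on 2RHet 3 of 3 and 3 of 22. XHet, YHet and 2LHet had no overlap between the lists. In bp, the stretches common to both lists came to 233 kb on Uextra, or 73.5% of the bp covered in replicate 1 and 31.4% of the bp covered in replicate 2. On 3RHet they were 5165 bp, or 88.2% and 9.39%, and on 2RHet 2739 bp, or 88.9% and 5.14%. On chromosome 4, a small arm rich in heterochromatin, 49 of 63 peaks of replicate 1 (77.8%) and 49 of 125 of replicate 2 (39.2%) had a partner.

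In replicate 2 the share with a partner was lower on the scaffolds than on the arms at every level of the score. The score is -10 times log10 of the peak caller's p-value. Quartiles were taken over the whole list. In the lowest quartile of replicate 2, 79 of 614 scaffold peaks had a partner (12.9%), against 1333 of 2598 arm peaks (51.3%). In the second quartile the shares were 26.8% of 478 scaffold peaks and 81.8% of 2733 arm peaks. In the third they were 51.5% of 355 and 95.2% of 2857. In the highest quartile 73 of 93 scaffold peaks had a partner (78.5%, 68.8 to 86.3%), against 3057 of 3120 on the arms (98.0%, 97.4 to 98.4%). Replicate 1 gave another picture. Its scaffold and arm shares were 70.9% and 66.1% in the lowest quartile, 85.0% and 89.5% in the second, 97.9% and 98.1% in the third, and 100% and 99.6% in the highest. The exact intervals of scaffolds and arms overlap in every quartile of replicate 1 and in none of replicate 2. The smaller number of scaffold peaks in replicate 1 bears on the shares of replicate 2 here too, and its part was not tested.

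**Figure D2:**
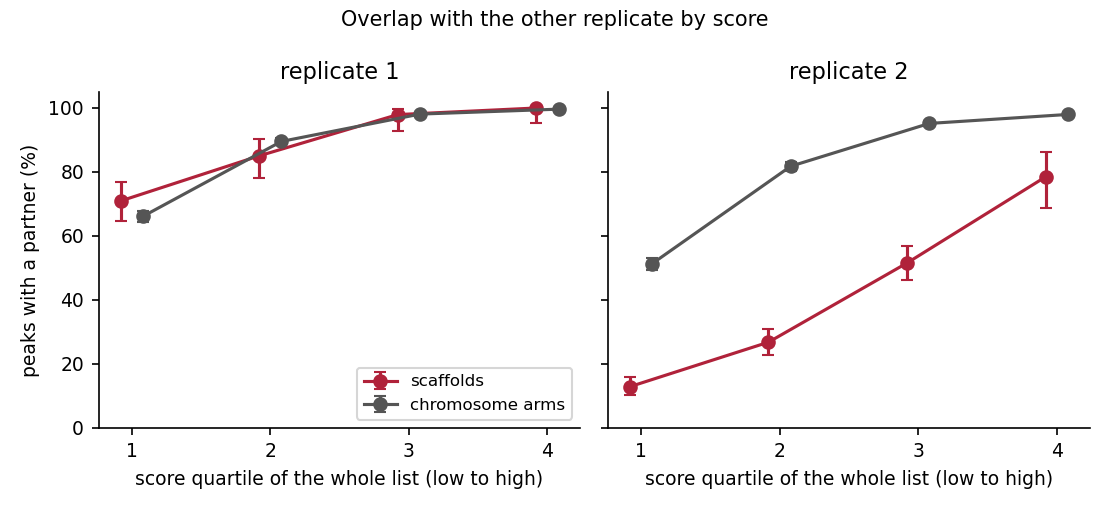
Share of peaks that overlap a peak of the other replicate (vertical axis, percent) by score quartile of the whole list (horizontal axis), for scaffolds in red and the 6 arms in grey, with exact 95% binomial intervals. The lines run together in replicate 1, while in replicate 2 the scaffolds stay below the arms, from 12.9% against 51.3% in the lowest quartile up to 78.5% against 98.0% in the highest.

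Over all scaffolds together, peaks had lower scores than on the arms in both lists. The median score was 117.5 on the scaffolds and 196.2 on the arms in replicate 1, and 131.1 and 239.5 in replicate 2. The lowest quartile of the list held 41.3% of the scaffold peaks of replicate 1 and 39.9% of those of replicate 2. The 1000 best peaks included 18 scaffold peaks in replicate 1, of which 17 lay on Uextra, and 11 in replicate 2, of which 1 lay on Uextra, 4 on U and 6 on Het scaffolds. A false discovery rate of at most 5%, as the authors' peak caller gave it, was listed for 20 scaffold peaks of replicate 1 (3.64%, against 7.90% over the whole list) and for 511 of replicate 2 (33.2%, against 53.5%). Among the arms chromosome 4 was lowest, with median scores of 97.8 and 140.9. A rate of at most 5% was listed for 3.17% and 44.8% of its peaks. The pooled scaffold values are mostly those of Uextra. The 28 peaks of replicate 2 on 3RHet went the other way, with a median score of 278.5 and a rate of at most 5% for 16 (57.1%). The 6 peaks of replicate 1 on 3RHet did not, with a median score of 118.7 and such a rate for 0 of them.

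Peaks without a partner were the weaker ones on the scaffolds as well. In replicate 1 the 90 peaks without a partner had a median fold of 2.93 and a median score of 68.9, against 4.18 and 142.0 for the 460 with one. In replicate 2 the 1077 without a partner had medians of 3.16 and 106.7, against 3.78 and 240.6 for the 463 with one. A rate of at most 5% was listed for 233 of the 1077 (21.6%), against 244 of the 1964 arm peaks of replicate 2 without a partner (12.4%) and 53.5% of the whole list.

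Tag density and fold enrichment ran in opposite directions between scaffolds and arms. Density is given as ChIP tags per kb of peak, per 1000000 unique ChIP tags of the library. Over all scaffold peaks it was 30.4 in replicate 1 and 28.1 in replicate 2, a mean of 29.2 ± 1.63 (SD, n = 2 replicates). Over all arm peaks it was 23.2 and 24.8, a mean of 24.0 ± 1.15 (SD, n = 2). The authors' fold over input had medians of 4.02 and 3.36 on the scaffolds, a mean of 3.69 ± 0.46 (SD, n = 2), against 4.79 and 4.90 on the arms, a mean of 4.84 ± 0.08 (SD, n = 2). Scaffold peaks thus held more tags per kb than arm peaks in each replicate, and stood less far above their input.

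The 5 scaffolds with shared regions showed the same order one by one. The density on Uextra was 30.4 in replicate 1 and 27.7 in replicate 2, with median folds of 4.06 and 3.33. On U it was 29.5 and 28.9, with folds of 3.93 and 3.57. On 3RHet it was 30.9 (exact 95% Poisson interval 29.6 to 32.1) and 29.6 (29.2 to 29.9), with folds of 3.46 and 3.34. On 3LHet it was 27.4 (26.5 to 28.3) and 26.7 (26.4 to 27.1), with folds of 3.28 and 3.44. The smallest set, the 3 peaks of replicate 1 on 2RHet, had a density of 25.9 (24.4 to 27.5) and a fold of 3.73, and the 22 of replicate 2 had 29.3 (29.0 to 29.7) and 2.87. The Poisson intervals take each tag as independent and do not cover the spread between peaks. On 3RHet in replicate 2 single peaks had densities of 13.5 to 39.2. Their median was 23.4, against a median of 20.7 over all arm peaks of that list. Peaks longer than 3000 bp held 68.5% of the bp on the Het scaffolds in replicate 2, so they weigh most in those sums. The pooled density of each of the 5 scaffolds exceeded that of every arm in the same replicate. The highest arm values were 23.8 on 3L in replicate 1 and 25.3 on 3R in replicate 2. The scaffolds with the fewest peaks varied widely: XHet had a density of 44.2 in replicate 1 and 14.3 in replicate 2, and in replicate 2 YHet had 23.1 and 2LHet 39.7. Chromosome 4 had densities of 20.1 and 20.7, the lowest among the arms in each replicate, with folds of 3.91 and 4.19. Its fold in replicate 1 was below those of Uextra and U.

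**Figure D3:**
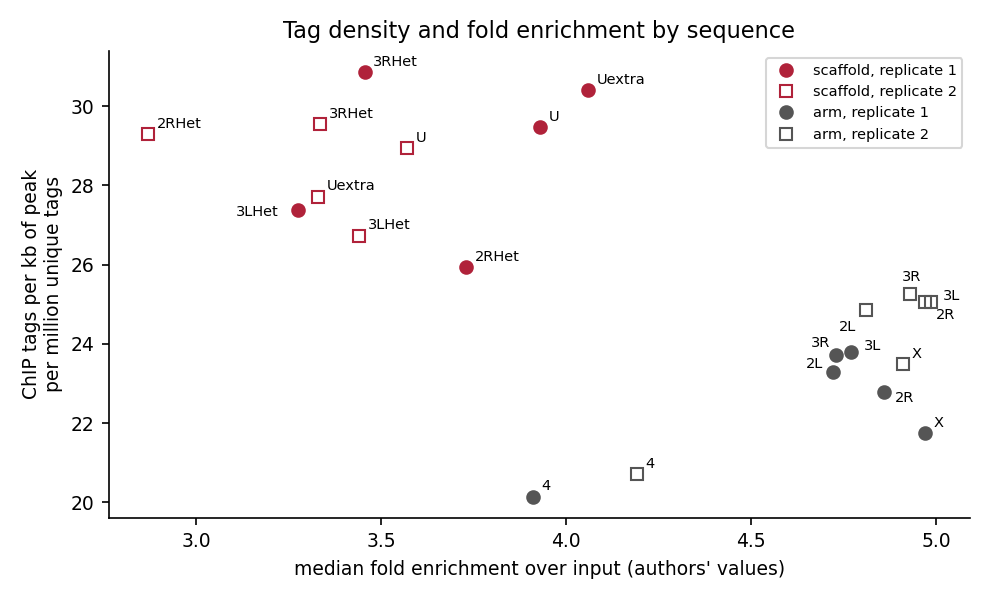
Density in ChIP tags per kb of peak per 1000000 unique tags (vertical axis) against the median fold enrichment over input (horizontal axis) for the 5 scaffolds with shared peaks in red and the 6 arms in grey, replicate 1 as filled circles and replicate 2 as open squares. The scaffolds lie upper left, with densities of 25.9 to 30.9 and folds of 2.87 to 4.06, and the 5 large arms lie lower right.

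The densest peaks showed this opposition too. A density of at least 40 was reached by 67 scaffold peaks of replicate 1 (12.2%) and 54 of replicate 2 (3.51%), against 295 (2.74%) and 274 (2.42%) arm peaks. The median fold of these dense peaks was 3.09 and 2.54 on the scaffolds, against 7.17 and 6.86 on the arms. Among the scaffold peaks, the densest of replicate 1 lay on Uextra:15544323-15545970, with 1662 tags, a density of 75.4 and a fold of 1.82, the lowest fold of all scaffold peaks in that list. The densest scaffold peak of replicate 2 lay on Uextra:13615153-13615952, with 886 tags, a density of 63.6 and a fold of 1.71. The arms reached higher densities, up to 81.1 in replicate 1 and 67.3 in replicate 2. These 2 peaks and the threshold were chosen after the values were seen. The first had a partner and the second had none.

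Overlapping peaks of both lists formed 458 shared regions on the scaffolds, of which 377 lay on Uextra, 65 on U, 7 on 3LHet, 6 on 3RHet and 3 on 2RHet. Their median length was 765 bp, against 953 bp for the 8557 shared regions of the arms. In 451 of them (98.5%) each replicate had a single peak, and the distance between the summits had a median of 28 bp (quartiles 11 and 50 bp), against 22 bp on the arms. This median rests on Uextra and U. On the Het scaffolds the summits were within 100 bp in 2 of 3 regions on 2RHet, 4 of 7 on 3LHet and 3 of 6 on 3RHet, where the median distance was 300.5 bp.

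Tag density in these regions was alike in both replicates, and the fold less so. Across the 458 regions Spearman's rho for the densities was 0.88 and Pearson's r was 0.90, against 0.87 and 0.89 across the arm regions. The folds had a rho of 0.64 and an r of 0.62 on the scaffolds, against 0.78 and 0.81 on the arms. The scores had a rho of 0.48 on the scaffolds and 0.80 on the arms. These are descriptions across regions, which share the libraries, their depth and the length of the peaks. The fold was higher in replicate 1 in 276 of the 458 regions and higher in replicate 2 in 181. On the log2 scale the fold of replicate 1 over that of replicate 2 came to a median of 0.13 (SD 0.38), against -0.01 (SD 0.31) on the arms.

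High folds on the scaffolds belonged mainly to replicate 1. A fold of at least 7 was found in 40 shared scaffold regions in replicate 1 (8.73%) and in 12 in replicate 2 (2.62%), and 4 regions reached it in both. For the 40 regions the folds centred on 8.23 in replicate 1 and on 5.73 in replicate 2 (medians), while their median densities were 30.7 and 31.2. On the arms 1683 (19.7%) and 1677 (19.6%) shared regions reached that fold, and 1114 reached it in both. Such folds were thus rarer on the scaffolds in each replicate. Of the 40 scaffold regions, 39 lay on Uextra. This threshold was also chosen after the values were seen, and choosing regions by their value in one replicate lowers the value to be found in the other.

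**Figure D4:**
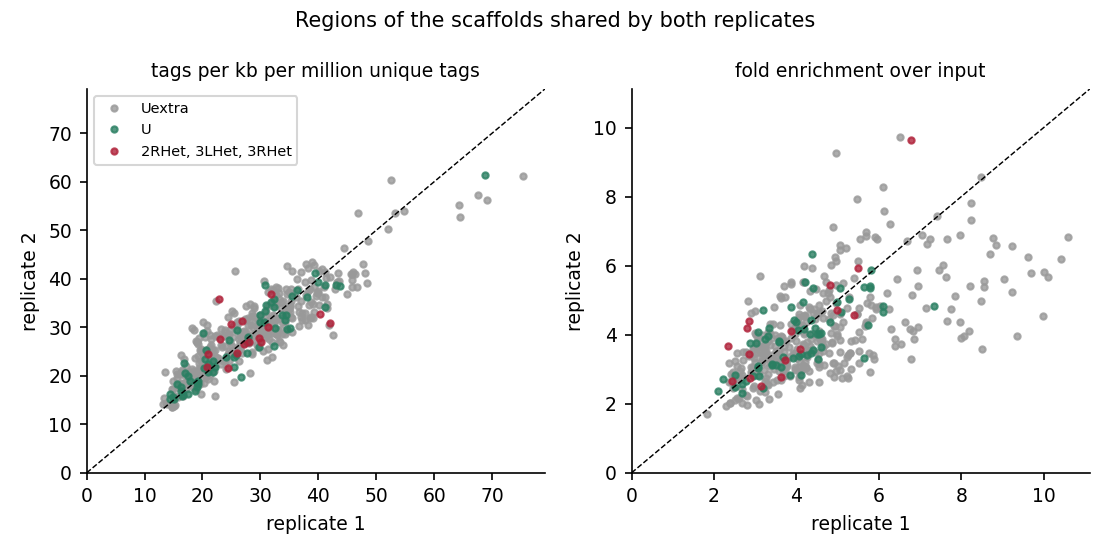
Tag density (left) and fold enrichment over input (right) of the 458 scaffold regions shared by both replicates, replicate 1 on the horizontal and replicate 2 on the vertical axis, with Uextra in grey, U in green and the Het scaffolds in red, and the line of equal values dashed. Densities follow the line (r = 0.90), while folds scatter more widely (r = 0.62), with 40 regions at a fold of at least 7 in replicate 1 and 12 in replicate 2.

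The regions named on each scaffold were those whose score percentile, averaged over both lists, was highest. Of the first 5 on Uextra, the highest was Uextra:1104368-1105360, with 470 tags and a fold of 8.78 in replicate 1 and 545 tags and a fold of 6.79 in replicate 2. Next was Uextra:13290313-13291160, with folds of 8.21 and 5.40 and densities of 39.3 and 38.3. The regions Uextra:16172010-16172860 and Uextra:18979535-18980351 had folds of 7.76 and 4.76, and of 10.1 and 5.66. The fifth, Uextra:5223942-5224505, had folds of 8.23 and 7.31. All 5 had a higher fold in replicate 1, and in all 5 the densities of the replicates were 31.5 to 39.8.

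On U the highest by score was the 2483 bp region U:7542704-7545186. It held 2287 tags in replicate 1 and 2605 in replicate 2, at densities of 68.8 and 61.4, and its folds were 4.11 and 2.84. No other scaffold peak of replicate 1 had a score as high as its 2119. The next regions on U were U:7457620-7458627 with folds of 6.10 and 4.65, U:9094896-9096108 with 5.78 and 5.42, and U:7729924-7731298 with 5.65 and 3.33. The last of the 5, U:1293279-1298238, differed in extent: the peak of replicate 1 spanned 587 bp with 265 tags, and that of replicate 2 spanned 4952 bp with 2795 tags, at similar densities of 33.7 and 32.4.

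Regions of unequal extent were also named on the Het scaffolds. The region on 3RHet from 2449101 to 2453999 was 1504 bp long in replicate 1, with 607 tags at a fold of 2.81, and 4899 bp long in replicate 2, with 2302 tags at a fold of 4.19. On 2RHet, the region from 3239947 to 3242908 held 750 bp at a fold of 3.62 in replicate 1 and 2904 bp at a fold of 2.78 in replicate 2. On 3LHet the best region was compact in both, from 206911 to 207652, with 742 bp and a fold of 6.79 in replicate 1 and 628 bp and a fold of 9.63 in replicate 2. This fold of 9.63 is the highest of replicate 2 on any Het scaffold. Replicate 1 covered more bp in 311 of the 458 shared scaffold regions and replicate 2 in 146. The peaks of replicate 2 covered at least 2 times the bp of those of replicate 1 in 15 of the regions, and the reverse held in 5. On the arms these last counts were 114 and 291.

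Replicate 2 listed long peaks on the Het scaffolds and on U. Peaks longer than 3000 bp numbered 29 on the scaffolds in replicate 2 and 1 in replicate 1. Of the 29, 21 lay on Het scaffolds, where they made up 25.3% of the 83 peaks and 68.5% of the bp covered, and 8 lay on U. Uextra had none in either list, and its longest peak was 1847 bp. On the arms 356 peaks of replicate 2 (3.15%) and 263 of replicate 1 (2.45%) were longer than 3000 bp. The folds of the 29 scaffold peaks ran from 2.18 to 4.41 with a median of 2.66, against a median of 4.66 for the long arm peaks of the same list. A partner was found for 9 of the 29, against 302 of the 356 on the arms. The 15 that exceeded 5000 bp had lengths of 5286 to 6646 bp and densities of 29.2 to 39.2. The longest, on 3RHet from 1983042 to 1989687, held 3781 tags at a fold of 2.66.

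**Figure D5:**
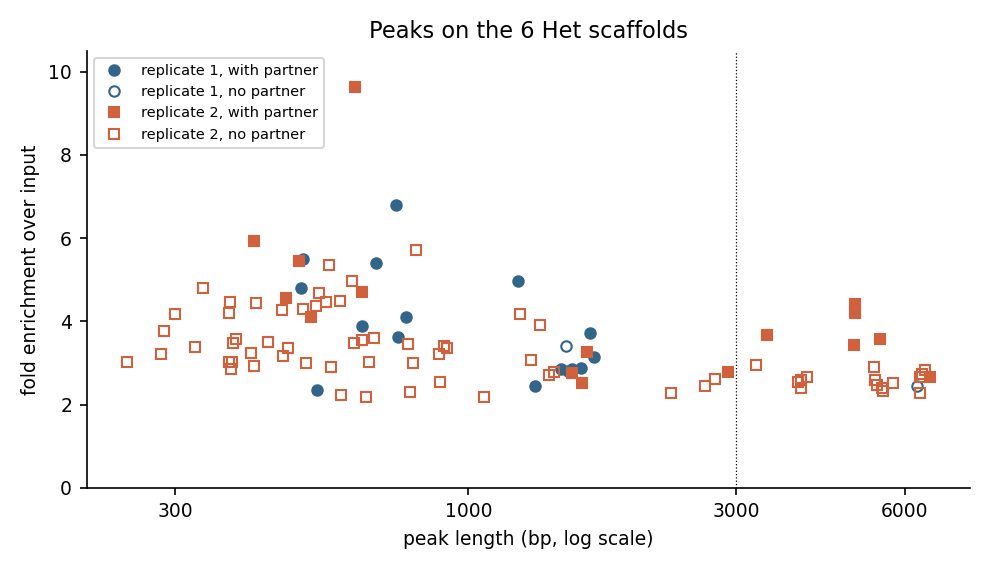
Fold enrichment over input (vertical axis) against peak length in bp on a log scale (horizontal axis) for the 18 peaks of replicate 1 (blue circles) and the 83 of replicate 2 (orange squares) on the 6 Het scaffolds, filled where the peak has a partner in the other list, with a dotted line at 3000 bp. To the right of the line stand 21 peaks of replicate 2 and 1 of replicate 1, with folds of 2.29 to 4.41.

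The 3 scaffolds without a shared region had few peaks in all. The XHet peak of replicate 1, from 34931 to 41229, was the longest of that list on the scaffolds, with 6299 bp, 3727 tags and a fold of 2.45. The XHet peaks of replicate 2 lay elsewhere, from 16290 to 16663 with 98 tags and from 80835 to 81213 with 89 tags, each at a fold of 3.03. On 2LHet replicate 2 had a short peak (385 bp) from 32687 to 33071 with 96 tags at a fold of 3.58, and a long one (3866 bp) from 123448 to 127313 with 2841 tags at a fold of 2.55. On YHet its 4 peaks had 499, 121, 184 and 263 tags, with folds of 2.19, 4.45, 2.99 and 2.19. They ran from the first at 133221 to the last ending at 281574. Their scores were 51.0 to 92.0, and those of the XHet peaks of replicate 2 were 73.9 and 51.8. The lowest score of the whole list was 50.0. Among the peaks of these 3 scaffolds, only the long 2LHet peak had a false discovery rate of at most 5% (2.47%). A site with no listed peak has no tag count in the files, so a low level there cannot be told from none.

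The highest scores without a partner were those of replicate 2. Its first 3 were on 3RHet from 1392816 to 1398131 with 3627 tags, a score of 1387 and a fold of 2.59, on U:5289771-5294119 with 3517 tags, a score of 1306 and a fold of 3.20, and on 2RHet from 854725 to 861249 with 4071 tags, a score of 823.4 and a fold of 2.83. Each was longer than 3000 bp. In replicate 1 the 3 highest had scores of 206.2, 202.5 and 150.2. They were Uextra:16666861-16667707 with 592 tags and a fold of 2.34, Uextra:3547677-3548546 with 281 tags and a fold of 4.21, and the XHet peak given above.

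Along Uextra the peaks with a partner were spread over nearly its whole length, and the surplus of replicate 2 was found in every window. In the 28 windows of 1 Mb up to 28 Mb, replicate 1 had 6 to 25 peaks (median 15) and replicate 2 had 22 to 57 (median 41). The windows held 5 to 25 peaks with a partner in either list, with medians of 12.5 and 13. Replicate 2 had the higher count in all 28 windows.

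The far end of Uextra departed from this. The last peak of replicate 1 ended at 27745580, and past it replicate 2 listed 148 peaks in a row without a partner, from 27809279 to 28998042. Of these, 138 lay past 28 Mb, more than in any other window of Uextra. They were short and weak: the 148 peaks were 361 bp long at the median (quartiles 284 and 433 bp) and had a median fold of 2.46 (quartiles 2.22 and 3.15), against 638 bp and 3.42 for the 1120 peaks of replicate 2 before them. Their median score was 76.8, against 145.8, and 1 of them had a false discovery rate of at most 5%, against 402 of the 1120. Their density, 30.1, was above the 27.5 of the other 1120. Without the peaks past 28 Mb, 33.0% of the scaffold peaks of replicate 2 had a partner, and the longest row without one was 18 peaks.

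Rows of neighbouring peaks without a partner were otherwise shorter. Besides the row of 148, replicate 2 had 62 rows of 5 or more on the scaffolds, with 474 peaks in all, of which 51 rows with 382 peaks were on Uextra and 6 rows with 50 peaks on U. The longest on U had 15 peaks, from 4397462 to 5319349, with folds of 2.25 to 4.64. On 2RHet 13 peaks in a row from 369929 to 2360567 had none, with folds of 2.39 to 4.47, and on 3RHet 11 from 949887 to 1982779, with folds of 2.31 to 5.71. In replicate 1 no row on the scaffolds exceeded 3 peaks.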

How the data were processed

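The submitters' processing notes name Bowtie and the builds dm3 and BDGP5. How reads that match several places were treated is not given in the sources used here. MACS was run for each ChIP replicate against its own input at a p-value cutoff of 1e-05, with a model fold of 6 and 4, per the file headers. Each peak has a raw count of ChIP tags, deposited without normalization. The fold enrichment is the authors' ratio of ChIP over the background expected from input. The deposited score is -10 times log10 of the p-value, and its false discovery rate is a percent value, as deposited. Positions are 1-based on dm3.

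Tags were summed over the peaks of a scaffold and divided by the kb covered and by the unique ChIP tags in the header, in units of 1000000. Overlap needed at least 1 bp. Clusters of overlapping peaks with a member from each list were merged to form shared regions, with the fold of the best-scoring peak per list. On scaffolds with more than 20 shared regions the 5 with the highest mean score percentile were named, on others the first. Named besides were the peaks of scaffolds with at most 5, the 3 best without a partner and the longest per list. Members were taken by sequence name alone, but they, the lists and the windows were chosen with earlier results of these data known. The overlap functions were tested on simulated data. The intervals take peaks or tags as independent within a list, so they cover counting error only. The labels name no molecular identifiers. Alternatives were other peak thresholds, overlaps, scalings and sets of scaffolds. Python 3.11.15, pandas 2.3.3, scipy 1.17.1 and matplotlib 3.10.9 were used. No genome of this build was used, so no sequence is printed and no gene is assigned.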

Additional observations from a re-analysis of the deposited data

How the results depend on the processing

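In each setting in which it was computed, the share of the list on the scaffolds was larger in replicate 2 and the share of scaffold peaks with a partner was smaller. Replicate 2 also listed more scaffold peaks in each setting, which limits its share with a partner. The share of the list was not computed for joined peaks, and the share with a partner not for joined peaks or the limit on the false discovery rate. With a score of at least 100, scaffold peaks numbered 315 in replicate 1 and 979 in replicate 2 (3.79% and 9.88% of the lists), with a score at or above the list median 176 and 448 (3.12% and 6.97%), with a false discovery rate of at most 5% 20 and 511 (2.24% and 7.43%), and without Uextra 98 and 272 (0.867% and 2.12%). The scaffolds took 3.48% and 9.0% of the bp covered, and 4.52% and 10.1% of the tags in peaks. With Uextra up to 28 Mb, a setting chosen after the data were seen, the share of replicate 2 was 10.9%, 33.0% of its scaffold peaks had a partner and its longest row was 18 in place of 148. Joining peaks at most 1000 bp apart, also chosen then, left 537 and 1364.

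The share of peaks with a partner was 78.7% and 28.1% with overlap of 50% of both peaks, 69.5% and 24.8% with summits within 100 bp, 83.8% and 27.2% with a score of at least 100, and 77.3% and 30.4% at or above the median score. The mean scaffold density was 21.1 when scaled by total ChIP tags and 26.7 as the median of the peaks, against 29.2. Leaving out 1 replicate gave 28.1 to 30.4 for the density, 3.36 to 4.02 for the median fold and 4.87% to 11.98% for the share of the list. No paired analysis was possible because no result here comes from a test between ChIP and input samples. The pairing of each ChIP with its own input is already in the authors' folds. The causes of these shifts were not tested. Peak lists hold only sites past the caller's cutoff, so weaker occupancy at a site without a peak is not measured.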

Other observations

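Over all scaffolds pooled, peaks stood farther apart than arm peaks within both lists. The median gap between neighbouring peaks was 39779 bp on the scaffolds and 1844 bp on the arms in replicate 1, and 14139 bp and 2334 bp in replicate 2. Gaps of at most 1000 bp were 2.39% of the scaffold gaps in replicate 1 and 11.5% in replicate 2. On the arms they were 40.8% and 36.6% of the gaps. In replicate 2 such close neighbours made up 9 of 21 pairs on 2RHet, 9 of 27 on 3RHet, 6 of 24 on 3LHet, 31 of 188 on U and 120 of 1267 on Uextra. Gaps on U and Uextra run across joined scaffolds, and no test was made. On 2RHet the median gap of replicate 2 was 2144 bp, near that of the arms. Its quartiles were 262 and 280645 bp, against 359 and 8282 bp on the arms, so close neighbours stood beside very wide gaps.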
